A study of Mus musculus with 10 samples.

Results

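Cftr, Slc26a3, Slc26a6, Slc9a2, Slc9a3, Slc12a2, Guca2a, Guca2b, Gucy2c and Car4 carry chloride, bicarbonate and sodium across the gut epithelium or regulate that traffic. These 10 genes were taken by symbol from the 24062 gene symbols counted in every library, and all 10 were found. The libraries came from jejunum of C57BL/6 mice at postnatal day 5, with 5 from wild-type mice (WT) and 5 from KSR23 mice. KSR23 mice carry a cassette for interleukin-23 (IL-23) in the ROSA26 locus behind a floxed STOP signal, and a cre recombinase under the K14 promoter, which is active in keratinocytes, removes that signal. The promoter directs the cassette to keratinocytes, and the controls were littermates. The comparison asks how the jejunum of the pups differed once IL-23 was made.

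The transporters work in layers. Slc12a2 loads chloride into the epithelial cell from the blood side, and Cftr, the cystic fibrosis channel, lets chloride and bicarbonate out into the lumen. Slc26a3 and Slc26a6 swap luminal chloride for bicarbonate, Slc9a2 and Slc9a3 swap luminal sodium for protons, and the membrane-anchored carbonic anhydrase Car4 interconverts carbon dioxide and bicarbonate at the cell surface. The peptides guanylin (Guca2a) and uroguanylin (Guca2b) are secreted into the lumen and bind guanylate cyclase C (Gucy2c), whose product cGMP opens Cftr and restrains Slc9a3.

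Guca2a and Guca2b, the genes of both ligands, are neighbours on mouse chromosome 4 (mm10), at chr4:119637704-119639471 on the plus strand and chr4:119656607-119658954 on the minus strand, each with 3 exons. Their proximal promoters are shown because both genes serve the same receptor, that of Slc26a3 because it holds the same motif as Guca2b, and that of Car4 because this gene had the largest fold change of the 10. The sequences are from RefSeq (GRCm38.p6), 5′ to 3′ on the strand of the gene, with the letters GTTAATNA (either strand) and TTCNNNGAA in capitals. For the first 3 the 133 bases span positions -128 to 4, and for Slc26a3 the 78 bases span -124 to -47, where 0 is the annotated transcription start. They lie at chr4:119637604-119637736 (Guca2a), chr4:119658941-119659073 (Guca2b), chr11:84957626-84957758 (Car4) and chr12:31438095-31438172 (Slc26a3).
Guca2a: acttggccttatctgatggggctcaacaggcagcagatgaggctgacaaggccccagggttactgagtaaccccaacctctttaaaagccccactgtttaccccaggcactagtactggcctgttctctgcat
Guca2b: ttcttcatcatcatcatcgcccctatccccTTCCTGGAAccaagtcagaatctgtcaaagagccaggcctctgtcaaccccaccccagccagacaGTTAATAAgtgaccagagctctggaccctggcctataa
Car4: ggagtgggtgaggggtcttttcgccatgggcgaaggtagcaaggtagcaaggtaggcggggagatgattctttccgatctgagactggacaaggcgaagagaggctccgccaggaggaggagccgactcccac
Slc26a3: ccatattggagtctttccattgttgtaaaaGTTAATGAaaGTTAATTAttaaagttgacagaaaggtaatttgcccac

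Promoters of 300 bases were found for 7 of the 10 genes. GTTAATNA occurred once in Guca2b, at -33, and at -94 and -84 in Slc26a3, and it occurred in 2.54% of all 32851 promoters in the RefSeq table. TTCNNNGAA occurred once, at -98 in Guca2b, and in 8.30% of all promoters. Neither string of letters was found in the promoters of Guca2a, Cftr, Slc26a6, Slc9a3 or Car4. A match describes the letters alone, and no binding was measured.

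The other genes were annotated at chr6:18170687-18322768 (Cftr), chr12:31390871-31473917 (Slc26a3), chr9:108853283-108913049 (Slc26a6), chr1:40680574-40769273 (Slc9a2), chr13:74121457-74169442 (Slc9a3), chr6:136697284-136781765 (Gucy2c) and chr11:84957786-84966044 (Car4), with Slc12a2 on chromosome 18. Cftr shares 1.66% of its exon bases with Gm15592 on the opposite strand, and the counting strand is not given in the sources used here. None of the other 9 genes shared exon bases, or a transcript stretch of 75 bases, with another gene.

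Counts assigned to genes summed to 25.5 to 32.03 M per WT library and 31.2 to 60.9 M per KSR23 library. Levels below are in CPM, the counts per 1000000 of the library total after scaling by edgeR's TMM factors. Across 9737 genes with a mean of at least 5 CPM, replicates 4 and 5 were the highest or lowest of their group for 8.54% and 18.4% of genes in WT and for 11.7% and 9.91% in KSR23. The figure would be 40% for interchangeable libraries and was 45.7% to 75.6% for replicates 1 to 3, so results are given with all 10 libraries and with replicates 1 to 3 alone. The study describes the libraries as biological replicates, and the labels do not name the animals behind them, so p-values measure the spread between libraries. The mean level of the IL-23 subunit gene Il12b was 0.109 CPM in WT and 0.553 CPM in KSR23 (adjusted p = 0.00364), and that of Il23a was 0.230 and 0.450 CPM (adjusted p = 0.270). Of the colon markers, Hoxb13 was at 0 in all 10 libraries, Hoxd13 reached 0.0322 CPM in 1 KSR23 library and was at 0 in the other 9, and Car1 did not exceed 0.195 CPM, while the epithelial markers summed to 2356 to 7191 CPM. In bulk tissue, fewer cells of a type and less RNA per cell cannot be told apart.

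Of the 10 genes, 6 were higher in KSR23 (Cftr, Slc26a6, Slc9a2, Slc9a3, Gucy2c and Car4) and none was lower, by edgeR's likelihood ratio test (LRT) at an adjusted p under 0.05, with the p-value adjusted over all genes tested. All 17632 genes with at least 5 counts in 1 or more libraries were tested, and 18.5% of them were called, 9.73% as higher in KSR23 and 8.76% as lower. edgeR's quasi-likelihood test (QL) called the same 6 genes, against 15.4% of all genes. All 10 genes also reached 5 counts in at least 1 WT library, so none entered the test through KSR23 alone. The median log2 fold change was 1.83 over the 10 genes and 0.03 over all genes tested. Every KSR23 library was above every WT library for 5 genes (Cftr, Slc26a6, Slc9a2, Gucy2c and Car4), as it was for 7.41% of all genes.

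In replicates 1 to 3 alone, LRT called 4 of the 10 genes (Cftr, Slc26a6, Slc9a2 and Car4), against 3.36% of all genes. QL on the same 6 libraries called Car4 alone, against 0.812% of all genes. The sizes of the log2 differences were close in both sets of libraries, and the standard errors were wider with 6 libraries. These 6 libraries are among the 10, so the close sizes are not an independent check. The plot of levels by library shows that the groups separated for 5 genes.

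**Figure D1:**
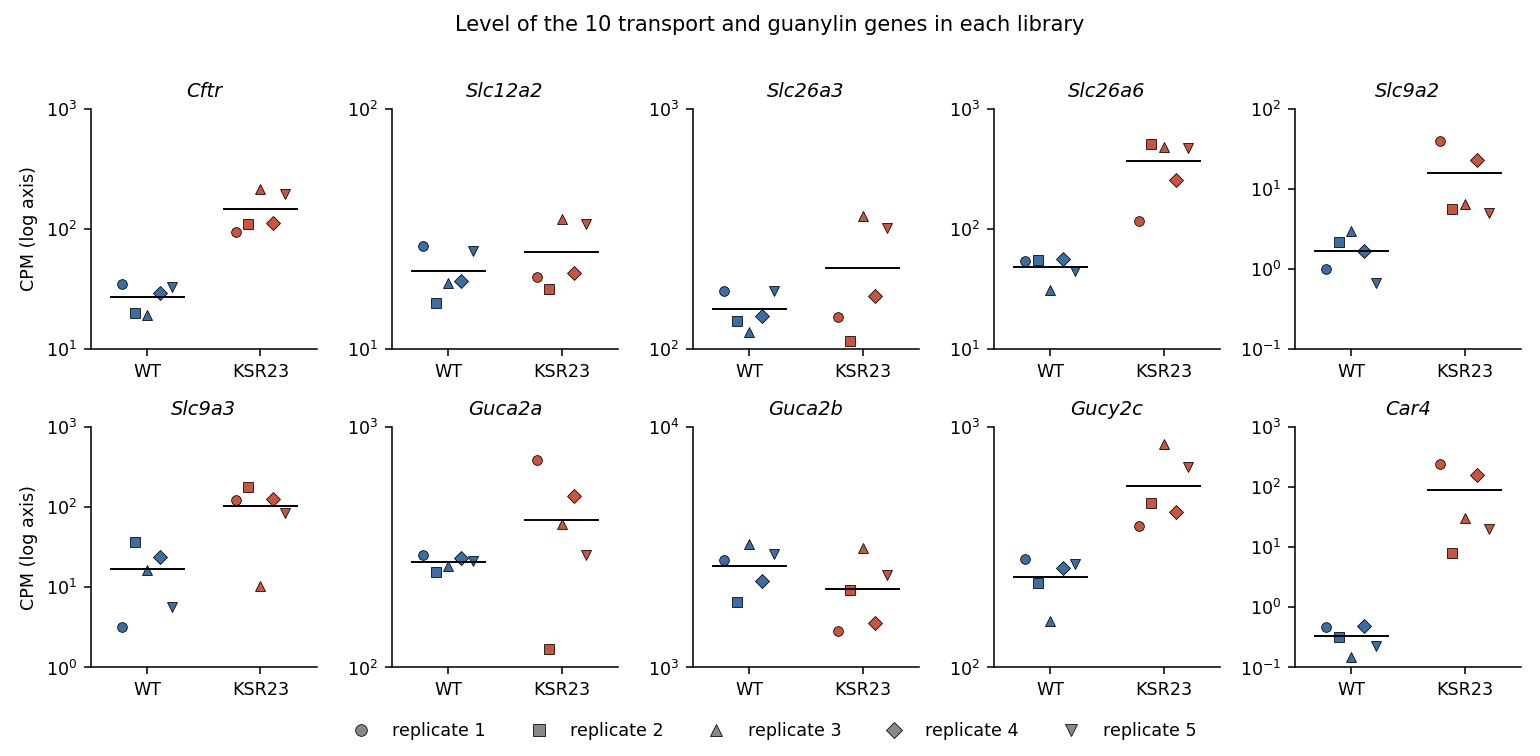
CPM of each gene (vertical log axis, scaled per panel) in the 5 WT (blue) and 5 KSR23 (red) libraries, with a marker shape for each replicate and a line at the group mean. The KSR23 points lie above all WT points for Cftr, Slc26a6, Slc9a2, Gucy2c and Car4, and overlap them for the other 5 genes.

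Among the secretory genes, the channel changed and the loader did not pass the test. Cftr was at 34.9, 19.9, 19.0, 29.4 and 32.8 CPM in WT libraries 1 to 5 and at 93.5, 109.9, 216, 113 and 194 CPM in KSR23 libraries 1 to 5. Even the lowest KSR23 library was above the highest WT library, and KSR23 replicates 3 and 5 were the highest of all. Cftr rose 5.34-fold (log2 fold change 2.42 ± 0.33 (SE, n = 5 per group), adjusted p = 2.61e-10 LRT, and 0.00033, QL). With replicates 1 to 3 the log2 fold change was 2.54 ± 0.56, with adjusted p = 0.00149 (LRT) and 0.0708 (QL).

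Slc12a2, the Na-K-2Cl cotransporter, was at 26.7, 15.5, 18.8, 19.2 and 25.6 CPM in WT and at 19.9, 17.9, 34.6, 20.8 and 33.1 CPM in KSR23. The groups overlapped widely, with KSR23 replicates 3 and 5 again at the top. Its log2 fold change was 0.25 ± 0.31 (adjusted p = 0.643, LRT). The log2 ratio of Cftr to Slc12a2 counts, which does not depend on library scaling, was 0.35 ± 0.21 (SD, n = 5) in WT and 2.50 ± 0.17 in KSR23. That is 4.44 times more Cftr relative to Slc12a2 in KSR23, with no overlap between groups (two-sided exact permutation p = 0.00794, the smallest that 5 against 5 libraries can give, and 0.0198 after adjustment over the 5 ratios tested). Over the 5 KSR23 libraries this ratio stayed between 4.70 and 6.25, although Cftr itself spanned 2.31-fold.

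The apical anion exchangers differed from each other. Slc26a6 was at 54.5, 54.8, 31.1, 56.5 and 44.4 CPM in WT and at 115, 506, 477, 253 and 469 CPM in KSR23. All KSR23 libraries were above all WT libraries, and replicates 1 and 4 were the lowest of the KSR23 group. Slc26a6 rose 7.54-fold (log2 fold change 2.91 ± 0.38, adjusted p = 1.3e-10, LRT, and 0.000452, QL). In replicates 1 to 3 alone it was 3.0 ± 0.63 (adjusted p = 0.000833 and 0.0852).

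Slc26a3, the exchanger down-regulated in adenoma, was at 174, 131, 118, 138 and 174 CPM in WT and at 136, 109, 358, 167 and 318 CPM in KSR23. Only KSR23 replicates 3 and 5 were above the WT range, and replicate 2 was below it. The log2 fold change was 0.57 ± 0.36 (adjusted p = 0.284, LRT). Its ratio to Slc26a6 fell from between 2.38 and 3.92 in the WT libraries to between 0.215 and 1.18 in the KSR23 libraries. Slc26a3 counts exceeded those of Slc26a6 in every WT library, and in KSR23 only in replicate 1. The mean log2 ratio was 1.62 ± 0.34 (SD, n = 5) in WT and -0.71 ± 0.91 in KSR23, a 5.03-fold shift towards Slc26a6 (exact permutation p = 0.00794, adjusted 0.0198).

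Both sodium-proton exchangers rose, with wide spread. Slc9a2 was a low-level transcript in WT, at 0.991, 2.19, 2.94, 1.67 and 0.676 CPM, and stood at 39.3, 5.61, 6.48, 22.9 and 4.94 CPM in KSR23. The groups did not overlap, and KSR23 replicates 1 and 4 were far above the other 3. The gene rose 9.35-fold (log2 fold change 3.23 ± 0.62, adjusted p = 3.52e-05, LRT, and 0.00691, QL). Without KSR23 replicates 1 and 4 the log2 fold change was 1.78 ± 0.48 (adjusted p = 0.0017, LRT), and with replicates 1 to 3 it was 3.10 ± 0.83 (adjusted p = 0.0237, and 0.193 by QL).

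Slc9a3, the main absorptive exchanger of the small intestine, was at 3.16, 36.2, 16.4, 23.8 and 5.74 CPM in WT and at 122, 177, 10.3, 127 and 84.9 CPM in KSR23. KSR23 replicate 3 fell inside the WT range and the other 4 were above it. Slc9a3 rose 6.10-fold (log2 fold change 2.61 ± 0.68, adjusted p = 0.00337, LRT, and 0.0319, QL). Over replicates 1 to 3 it was 2.51 ± 0.99 and was not called (adjusted p = 0.210 and 0.408).

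Libraries differed in how well GC-rich transcripts were represented. The median log2 level of the GC-richest decile of genes minus that of the GC-poorest decile, centred per gene, was -0.89, 0.63, 0.54, 0.21 and -0.42 for WT replicates 1 to 5 and 0.81, 0.38, -1.26, 0.54 and -0.34 for KSR23. Slc9a3 was lowest in the libraries with the most negative values, WT replicates 1 and 5 and KSR23 replicate 3. Within KSR23, Cftr, Slc26a3, Slc12a2 and Gucy2c were highest in replicates 3 and 5 (-1.26 and -0.34). Car4, Slc9a2 and Guca2a were highest in KSR23 replicates 1 and 4 (0.81 and 0.54). With each library's GC trend as an offset, the log2 fold change of Slc9a3 was 2.62 ± 0.69 (adjusted p = 0.00339, LRT), nearly as without it. The Slc9a3 transcript has 50.9% GC and lies in the middle of the genes (decile 6), so this offset could move it little. Whether the GC content of a library affected these levels was not tested.

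**Figure D2:**
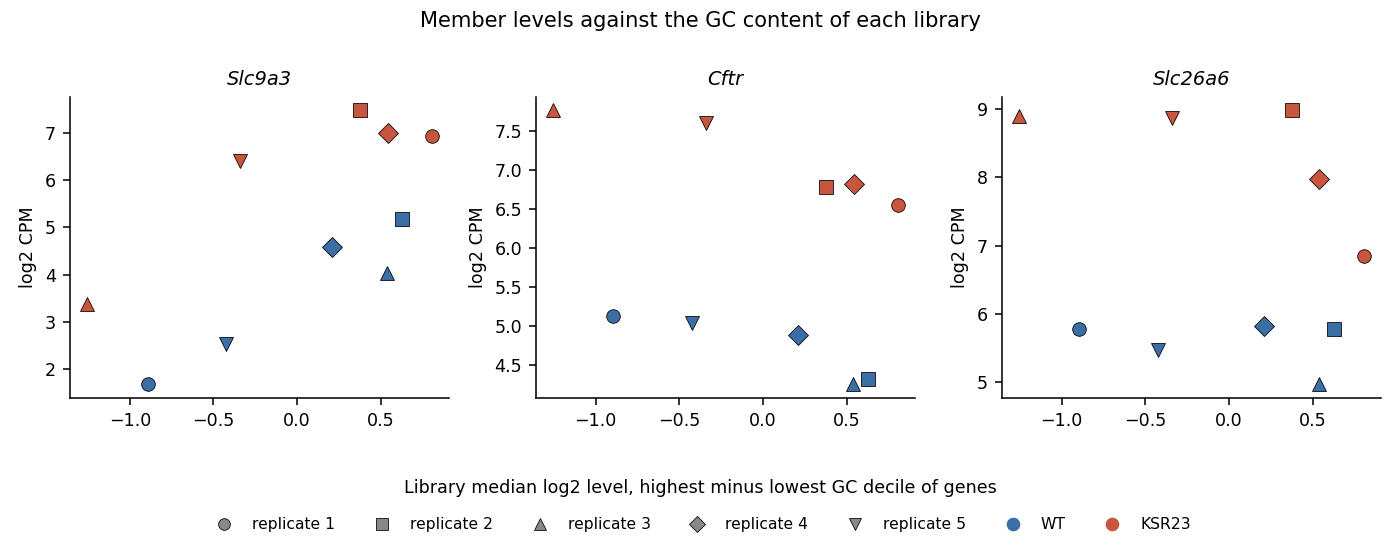
Log2 CPM of Slc9a3, Cftr and Slc26a6 (vertical axes) against the difference in median log2 level between the GC-richest and GC-poorest deciles of genes (horizontal axis), 1 point per library. Slc9a3 was lowest at the left of each group (WT replicate 1 and KSR23 replicate 3), whereas the KSR23 points of Cftr and Slc26a6 lie above all WT points across the axis.

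The ratios that involve Slc9a3 did not separate the groups. Slc9a3 to Slc9a2 had a mean log2 ratio of 3.01 ± 0.98 (SD, n = 5) in WT and 2.77 ± 1.76 in KSR23 (exact permutation p = 0.825, adjusted 0.857). Cftr to Slc9a3 had 1.12 ± 1.79 in WT and 0.87 ± 2.1 in KSR23 (exact permutation p = 0.857, adjusted 0.857). The plot of the 5 ratios shows both sets of points interleaved.

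The ligand genes did not pass the test and had the highest levels per kilobase of the 10 in both groups. Guca2a was tightly held in WT, at 293, 248, 265, 286 and 277 CPM, and scattered in KSR23, at 730.2, 119, 394, 515 and 292 CPM. The highest and lowest library differed 1.18-fold in WT and 6.15-fold in KSR23, with KSR23 replicates 1, 3 and 4 above the WT range, replicate 2 below it and replicate 5 inside it. The log2 fold change was 0.58 ± 0.39 (adjusted p = 0.324, LRT), and 0.87 with adjusted p = 0.0274 without KSR23 replicate 2. Without KSR23 replicates 1 and 4 it was 0.01 ± 0.37 (adjusted p = 0.988).

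Guca2b was at 2802, 1876, 3258, 2283 and 2956 CPM in WT and at 1422, 2099, 3128, 1535 and 2415 CPM in KSR23. KSR23 replicates 1 and 4 were below all WT libraries and the other 3 were inside the WT range. Its log2 fold change was -0.31 ± 0.29 (adjusted p = 0.506, LRT). The log2 ratio of Guca2a to Guca2b was -3.24 ± 0.29 (SD, n = 5) in WT and -2.54 ± 1.27 in KSR23 (exact permutation p = 0.310, adjusted 0.516).

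Transcript length moved with the groups, and the ligand transcripts are short (594 bases for Guca2a, 697 for Guca2b). The decile of genes with the shortest transcripts, which holds both ligands and Car4, had a median log2 fold change of -0.52. The deciles that hold Cftr, Slc26a6, Slc9a2, Slc9a3 and Gucy2c had medians of 0.32 to 0.38. With the length trend of each library as an offset, Guca2a was called as higher in KSR23 (log2 fold change 1.37 ± 0.45, adjusted p = 0.024, LRT). Guca2b then turned to 0.35 ± 0.21 (adjusted p = 0.281). The call of Guca2a and the direction of Guca2b thus depended on this choice. Whether transcript length itself set these values was not tested.

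Gucy2c, the receptor of both peptides, was at 281, 224, 156, 259 and 269 CPM in WT and at 387, 482, 845, 441 and 679 CPM in KSR23. Every KSR23 library was above every WT library, with replicates 3 and 5 the highest, as for Cftr. Gucy2c rose 2.38-fold (log2 fold change 1.25 ± 0.29, adjusted p = 0.00048, LRT, and 0.00769, QL). With a term for Y-linked counts it was 1.22 ± 0.39 and was not called (adjusted p = 0.0745, LRT). From replicates 1 to 3 it was 1.41 ± 0.52 and was not called (adjusted p = 0.137 and 0.259).

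**Figure D3:**
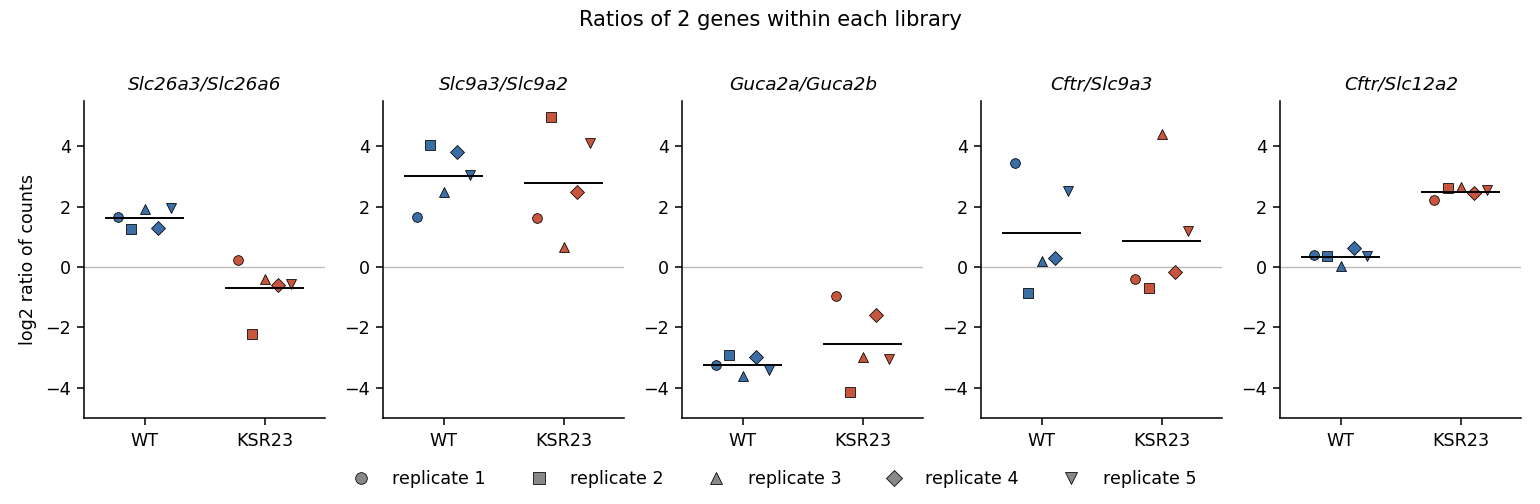
Log2 ratio of the counts of 2 genes within each library (vertical axis), for WT (blue) and KSR23 (red), with a marker shape for each replicate and a line at the group mean. Slc26a3/Slc26a6 and Cftr/Slc12a2 separate the groups completely, and the other 3 ratios overlap.

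Car4 was a trace transcript in WT and was well above that trace in every KSR23 library. It was at 0.464, 0.318, 0.147, 0.490 and 0.225 CPM in WT, which were 15, 9, 4, 17 and 6 counts. In KSR23 it was at 239, 8.03, 30.8, 157 and 20.0 CPM, which were 16779, 249, 776, 8889 and 709 counts. The groups were far apart, yet the KSR23 libraries themselves spanned 29.7-fold, with replicates 1 and 4 at the top as for Slc9a2 and Guca2a. Car4 rose by a log2 fold change of 8.09 ± 0.76, about 273-fold (adjusted p = 1.55e-13, LRT, and 0.000354, QL). Without KSR23 replicates 1 and 4 it was 5.90 ± 0.54 (adjusted p = 2.06e-22, LRT), and with replicates 1 to 3 it was 8.23 ± 1.04 (adjusted p = 7.69e-07, and 0.0428 by QL). Car4 also marks colonic epithelium and capillaries. The colon markers Hoxb13, Hoxd13 and Car1 were at or near 0 in both groups, as given above, and of the 4 endothelial markers 1 (Cdh5) was lower in KSR23 and none was higher.

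**Figure D4:**
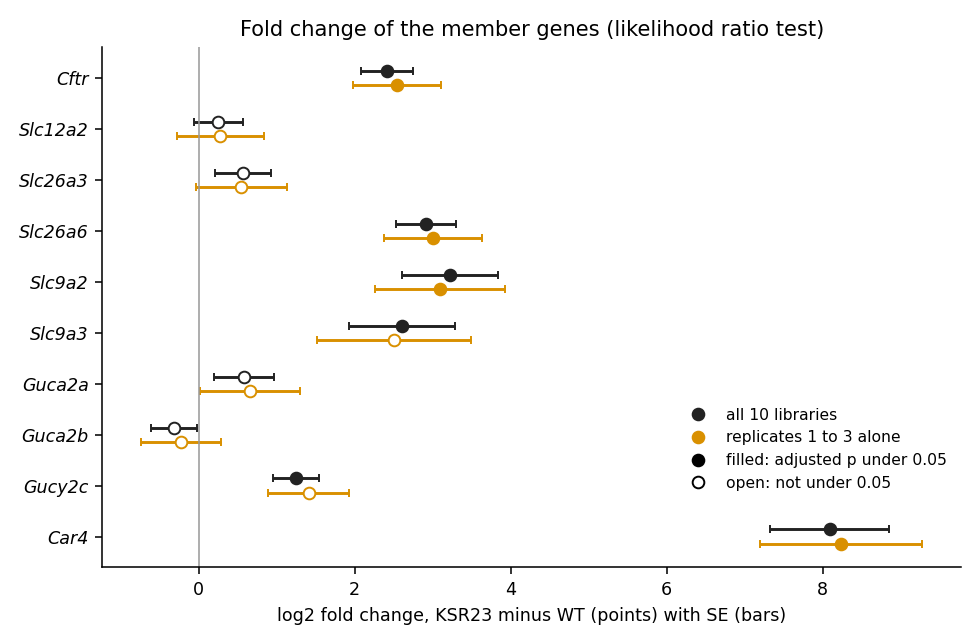
Log2 fold change of each gene, KSR23 minus WT (horizontal axis), with SE bars, from all 10 libraries (black) and from replicates 1 to 3 (orange), filled where the adjusted LRT p was under 0.05. Slc9a3 and Gucy2c are filled with 10 libraries and open with 6, at similar fold changes.

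Per kilobase of merged exons, the order of the mean levels in WT was Guca2b (3029 ± 634 CPM per kb, SD, n = 5), Guca2a (461 ± 29.9), Gucy2c (60.1 ± 12.8), Slc26a3 (23.0 ± 4.06), Slc26a6 (8.92 ± 1.98), Cftr (3.51 ± 0.944), Slc9a3 (3.10 ± 2.46), Slc12a2 (1.94 ± 0.440), Slc9a2 (0.242 ± 0.130) and Car4 (0.167 ± 0.0755). The ranges of Cftr and Slc9a3, of Slc9a3 and Slc12a2, and of Slc9a2 and Car4 overlapped in WT, and those of the other neighbours did not. In KSR23 the ligands and receptor kept the first 3 places. Slc26a6 (67.3 ± 31.8 CPM per kb) was next, followed by Car4 (46.3 ± 52.0), Slc26a3 (34.2 ± 17.7), Slc9a3 (18.9 ± 11.2), Cftr (18.7 ± 7.19), Slc12a2 (2.31 ± 0.726) and Slc9a2 (2.27 ± 2.16). Neighbours in the KSR23 order overlapped except Guca2b with Guca2a, Gucy2c with Slc26a6 and Cftr with Slc12a2. Without KSR23 replicate 1 the mean of Car4 was 27.5 CPM per kb, below that of Slc26a3 (37.4), and that of Slc9a2 was 1.43.

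Epithelial, enterocyte and goblet cell markers were compared between the same libraries. The 8 epithelial markers summed to 2356 to 5291 CPM in WT and 3256 to 7191 CPM in KSR23, and 1 of them (Cdh1) was called as higher by LRT (adjusted p = 0.026) and not by QL (0.0572). With their mean log2 level as a term in the fit, the same 6 genes were called and Slc26a3 was added, while the share called over all genes was 37.5% (for Slc26a3, log2 fold change 0.75 ± 0.24, adjusted p = 0.00592, LRT). With this term the log2 fold changes of Slc9a3 (1.70 ± 0.40), Slc9a2 (2.56 ± 0.44) and Car4 (7.39 ± 0.71) were smaller than without it (2.61, 3.23 and 8.09). Of the 5 enterocyte markers, Krt20 was higher in KSR23 without overlap (log2 fold change 2.22 ± 0.36, adjusted p = 1.27e-07, LRT) and Fabp1 was lower (-1.01 ± 0.36, adjusted p = 0.0351, LRT, and 0.0822, QL), while Alpi, Apob and Anpep were not called. The enterocyte markers summed to 12457 to 22509 CPM in WT and 9146 to 17218 CPM in KSR23. Of the 5 goblet markers 4 were higher in KSR23 (Muc2, Spdef, Fcgbp and Agr2), against 9.73% of all genes, and Tff3 was not, with sums of 1210 to 1640 CPM in WT and 1979 to 2977 CPM in KSR23. The part of enterocytes and goblet cells in the results was not tested.

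Other genes of the same pathways were counted from lists. Of the 24 tested chloride and potassium channel genes, 10 were higher in KSR23 and 1 was lower (45.8% against 18.5% of all genes), with a median log2 fold change of 0.73. The largest rises were in Clca6, a chloride channel accessory protein of enterocytes (log2 fold change 3.20 ± 0.55, adjusted p = 2.48e-06), the potassium channel Kcnj16 (2.64 ± 0.53), the chloride channel Clcn2 (2.02 ± 0.45) and Clca4 (1.94 ± 0.32). The lysosomal exchanger Clcn6 fell by 1.06 on the log2 scale. The most abundant genes of the list, Clca3 (0.39 ± 0.28, adjusted p = 0.37) and Ano9 (0.21 ± 0.29, adjusted p = 0.692), did not pass the test. With replicates 1 to 3 alone, 4 genes of this list were called by LRT and none by QL.

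Of the 17 tested genes among the other anion exchangers and bicarbonate transporters, 4 were higher and 2 lower (35.3% against 18.5% of all genes). Slc26a2, the sulfate transporter, was at 23.3 to 32.7 CPM in WT and at 52.1 to 281 CPM in KSR23, a log2 rise of 2.50 ± 0.37 (adjusted p = 1.47e-08). The sodium bicarbonate cotransporter Slc4a4, which loads bicarbonate from the blood side, rose by 1.25 ± 0.38. Slc4a11 (2.63 ± 0.81) and Slc26a10 (1.71 ± 0.57) rose at levels of at most 1.42 CPM. Slc4a9 fell by 3.03 and Slc4a5 by 1.32 on the log2 scale. The anion exchanger Slc4a2, at 29.2 to 66.5 CPM, did not pass the test (0.46 ± 0.30).

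Among 19 tested sodium transport genes, 3 were higher and 1 lower, which is 21.1% against 18.5% of all genes. Among them were the potassium chloride cotransporter Slc12a7 (1.07 ± 0.29 on the log2 scale), the exchanger Slc9a5 (1.42 ± 0.52) and Slc12a3, which fell by 2.20 from a level of at most 0.217 CPM. The abundant sodium pump subunit Atp1b1 (0.19 ± 0.37, adjusted p = 0.789) did not pass the test.

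Of the 23 tested genes of the cGMP and cAMP pathways downstream of or beside Gucy2c, 2 were higher and 3 lower, which is 21.7% against 18.5% of all genes. Vipr1, a receptor for vasoactive intestinal peptide, was at 8.39 to 14.6 CPM in WT and at 19.4 to 85.0 CPM in KSR23 (1.99 ± 0.43 on the log2 scale, adjusted p = 0.000168). The cyclic nucleotide exporter Abcc4 rose by 1.42 ± 0.33. The catalytic subunit of protein kinase A, Prkaca, fell by 0.88 on the log2 scale, and Pde6c and Nppb were called as lower from levels of at most 0.220 and 0.460 CPM. Nppb was at 0 in all 5 KSR23 libraries. Prkg2, the kinase through which cGMP acts on Cftr, was not called (0.24 ± 0.31, adjusted p = 0.655), nor was the cGMP phosphodiesterase Pde9a (-0.15 ± 0.26, adjusted p = 0.76).

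Among 18 tested scaffold proteins and kinases that act on the exchangers, the kinase Sgk2 (1.31 ± 0.41) and the deubiquitinase Usp10 (1.20 ± 0.36) were higher and none was lower, which is 11.1% against 18.5% of all genes. The abundant scaffolds Ezr (0.62 ± 0.39, adjusted p = 0.301) and Pdzk1 (-0.00 ± 0.29, adjusted p = 0.998) were not called. Of the other 15 carbonic anhydrase genes, 3 were higher and 1 lower (26.7% against 18.5% of all genes). Car9 (2.14 ± 0.33, adjusted p = 2.04e-08) and Car12 (1.95 ± 0.31, adjusted p = 4.19e-08), both membrane-bound like Car4, rose without overlap between groups. Car15 rose by 1.94 ± 0.72 at no more than 0.762 CPM, and Car3 fell by 1.91 on the log2 scale. The genes with the highest mean levels in WT, Car13 (0.29 ± 0.34) and Car8 (-1.03 ± 0.52, adjusted p = 0.161), were not called. Of the genes named from the lists as higher or lower, QL did not call Slc26a10, Slc9a5, Slc12a3, Pde6c, Prkaca and Car15.

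**Figure D5:**
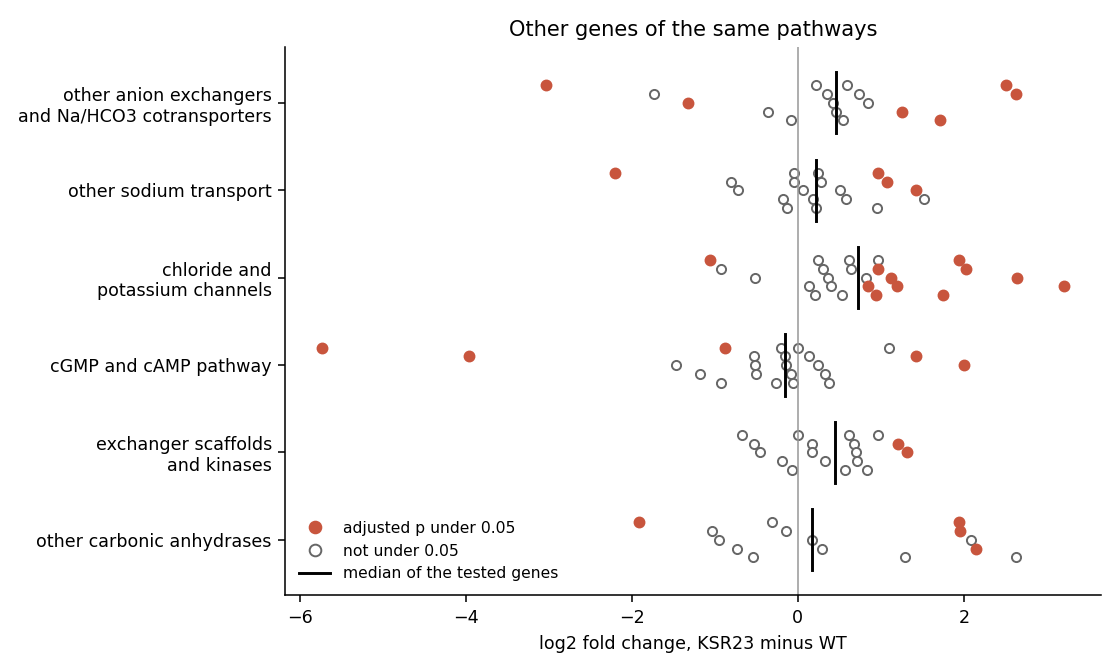
Log2 fold change, KSR23 minus WT (horizontal axis), of every tested gene in the 6 lists of related genes, filled where the adjusted LRT p was under 0.05, with a bar at each list's median. The channel list has 10 filled points on the right and 1 on the left, and its median is 0.73.

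For the called genes with a mean of at least 10 CPM, the genes with the most similar profile over the 10 libraries were found among 7862 genes by the root mean squared difference in centred log2 CPM. For Cftr these were the polymeric immunoglobulin receptor Pigr (0.17), Slc13a2 (0.18) and Cd38 (0.21). For Gucy2c they were Ltn1 (0.079), Slc44a4 (0.094) and Sft2d2 (0.099), and for Slc26a6 they were Ggt1 (0.18), Gcnt3 (0.24) and Ereg (0.25). Slc9a3 had no such close profile, with Fam83h (0.37), Aacs (0.49) and Mboat1 (0.50). Car4 was nearest to the acute-phase gene Saa1 (1.04), Fga (1.22) and Nos2 (1.31), at distances well above those of the other 4 genes. The WT means of Car4, Saa1, Fga and Nos2 were 0.33, 0.12, 0.47 and 0.36 CPM. They reached the limit of 10 CPM through KSR23 alone, so their nearness says little beyond the rise they share.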

How the data were processed

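The authors sequenced oligo-dT primed, PCR-amplified and transposase-fragmented jejunum cDNA and, per the labels and their methods, mapped reads to mm10 (TopHat2 2.1.0) and counted reads within gene models (HTSeq 0.6.1p1). Their processing notes also name FastQC and edgeR 3.18.1. The deposited values are raw counts for each gene. The counter's own totals (27.9% to 35.2% of all reads, mostly reads with more than 1 alignment) entered no library size. Without molecular identifiers, PCR copies cannot be recognised. From the counts, edgeR 4.0.16 (R 4.3.3) fitted group alone on TMM-scaled libraries of genes with at least 5 counts in 1 library. Its likelihood ratio test, with Benjamini-Hochberg adjustment and calls under 0.05, was the main test, and its quasi-likelihood test stands beside it. The fits were tried on simulated counts with the same dispersion for all genes and interchangeable replicates, which these libraries are not. Alternatives were DESeq2 1.42.0, other scaling, filters, covariates and subsets of libraries. Omitting KSR23 replicates 1 and 4, the GC and length offsets and omitting single libraries from the levels per kilobase were chosen after seeing the data. Within-library ratios used log2((count + 0.5)/(count + 0.5)) and exact permutation over libraries (scipy 1.17.1). Lengths and positions came from GENCODE. The genes, lists and tests were chosen with earlier results of these data known. Named were all 10 genes, per list up to 4 called genes in each direction by size of change and the 2 most abundant, and the 3 nearest profiles. No protein sequences were used here. Some genes that this rule names are not reported here.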

Additional observations from a re-analysis of the deposited data

Results flagged for a closer look

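Slc9a3 stood apart in 1 KSR23 library. Its log2 CPM was 3.37 in KSR23 replicate 3, and the next lowest KSR23 library was at 6.41, a gap of 0.741 of the whole range of the group. It was the 1 sample found to lie this far out in 30 groups of 5 values searched (10 genes and 5 ratios in 2 groups), where chance alone gives about 1.5. Without KSR23 replicate 3 the adjusted p of Slc9a3 was 3.04e-05 (likelihood ratio test).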

How the results depend on the processing

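Of the 10 genes, 6 or 7 were called whichever single library was left out. Omitting 1 library moved the log2 fold changes to between 7.41 and 8.44 for Car4, 2.62 and 3.52 for Slc9a2 and 2.34 and 3.13 for Slc9a3, all called, with the lowest value of Car4 and Slc9a2 without KSR23 replicate 1. With replicates 1 to 3 alone and the quasi-likelihood test, 1 of the 10 was called. A term for Y-linked counts left 5 (Gucy2c, adjusted p = 0.0745), and at least 5 counts in every library left 5, since Car4 was not tested. Guca2b reversed to 0.35 with a length offset and 0.41 with GC and length offsets. The quasi-likelihood test without KSR23 replicates 1 and 4 did not call Slc9a3 (adjusted p = 0.0808). The cause of these changes was not tested.

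The same replicate numbers did not pair libraries (correlations of -0.74, 0.41, -0.69, 0.36 and 0.49 for numbers 1 to 5). With the replicate block the same number of genes, 6 of the 10, was called, 1 sodium transport gene, 7 channel genes and 1 scaffold gene were called, and the ratios Slc26a3/Slc26a6 (-2.33) and Cftr/Slc12a2 (2.15) had p = 0.0625 by exact sign flips, the smallest that 5 pairs allow.

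With replicates 1 to 3, those ratios were -2.41 and 2.24 (exact p = 0.1, the smallest possible). Without 1 library they ranged from -2.57 to -1.95 and from 2.07 to 2.22. Slc9a3/Slc9a2 ranged from -0.79 to 0.29, Cftr/Slc9a3 from -1.14 to 0.33, and Guca2a/Guca2b from 0.30 to 1.10. Without KSR23 replicates 1 and 4 they were 0.24, 0.51 and -0.15, and with replicates 1 to 3 Cftr/Slc9a3 was 0.17.

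For the lists of channels, anion exchangers, sodium transport, cyclic nucleotide pathway, scaffolds and carbonic anhydrases, replicates 1 to 3 gave 4, 1, 0, 1, 0 and 2 calls by the likelihood ratio test and 0 in all 6 by the quasi-likelihood test. The Y-linked term gave 6 channels, 2 anion exchangers, 1 sodium transport gene, 3 of the cyclic nucleotide pathway and 0 scaffolds. The quasi-likelihood test gave 2 sodium transport and 3 cyclic nucleotide genes. At least 5 counts in every library gave 3 anion exchangers, 2 sodium transport and 3 cyclic nucleotide genes. Scaffold calls were 4 by DESeq2, 4 with a length offset and with both offsets, and 8 with the epithelial term, which gave 7 carbonic anhydrases. The length offset gave 2 sodium transport genes and 7 channels. Without KSR23 replicates 1 and 4 there were 3 cyclic nucleotide genes and 5 scaffolds, and by the quasi-likelihood test 2, 6 and 2 sodium transport genes. Leaving out 1 library gave 1 to 4 sodium transport genes (2 without WT replicate 1, 3 or 4, and 1 without WT or KSR23 replicate 5) and 1 to 5 scaffolds (5 without KSR23 replicate 1, and 1 without KSR23 replicate 5).

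Over all genes, calls numbered 3261, against 579 and 140 with replicates 1 to 3 (likelihood ratio and quasi-likelihood), 1797 with the Y-linked term and 6610 with the epithelial term. Library totals without TMM moved the share of calls that were higher from 52.6% to 43.2%. Depth limits the low genes: Car4 rested on 4 to 17 counts per WT library.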
